A study of Mus musculus with 6 samples.

Results

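The genes described here are those by which liver takes up glycerol and turns it into glycerol phosphate and on to a glycolytic intermediate: the aquaglyceroporin channel genes Aqp3, Aqp7 and Aqp9, the glycerol kinase gene Gyk, and the glycerol phosphate dehydrogenase genes Gpd1, Gpd2 and Gpd1l. Of these 7 genes, named by their role, 5 were analysed among the 12366 genes of the deposited table. The other two, Aqp3 and Aqp7, were not analysed here. Gyk was found by its Ensembl identifier, since the table lists it under the symbol Gk, and the other four by symbol.

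Liver RNA came from male C57BL/6 mice kept on chow until 22 weeks of age and fasted for 48 h. The 3 Acss2-KO libraries came from Acss2-/- mice, which lack the enzyme that makes acetyl-CoA from acetate in the cytosol and nucleus, and the 3 WT libraries from wild type mice. The labels do not say whether the replicates are separate mice, and the p-values therefore rest on a library-to-library spread that may be technical. Whole liver holds several cell types, and fewer cells of a type cannot be told apart from less RNA per cell.

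During a fast, adipose tissue releases glycerol as it breaks down triglyceride, and the liver is the main site that recovers it. Glycerol crosses the hepatocyte membrane through the AQP9 channel, is phosphorylated by glycerol kinase, and the resulting glycerol-3-phosphate is either oxidised to dihydroxyacetone phosphate, an entry point to gluconeogenesis, or acylated to make triglyceride and phospholipid. The cytosolic dehydrogenase GPD1 uses NAD and works in both directions, while GPD2 sits on the inner mitochondrial membrane and passes electrons to the respiratory chain. Together they form the glycerol phosphate shuttle, which carries reducing equivalents from cytosol to mitochondria beside the malate-aspartate shuttle.

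Estimated depth lay between 21.8 and 30.8 M reads per library. Acss2 averaged 2.42 ± 1.10 CPM (reads per 1000000 reads, SD, n = 3) in Acss2-KO and 76.2 ± 4.19 CPM in WT (SD, n = 3). The hepatocyte genes searched for summed to between 97590 and 108300 CPM in Acss2-KO and between 86560 and 106900 CPM in WT, with Alb alone at 79090 ± 3787 CPM in Acss2-KO and 69740 ± 10090 CPM in WT (SD, n = 3 each). Of the 7 hepatocyte genes tested, Tat rose (3783 ± 2268 CPM in Acss2-KO and 1108 ± 390 CPM in WT, SD, n = 3 each, limma adjusted p = 0.0224), Ttr fell (1260 ± 391 CPM in Acss2-KO and 4260 ± 45.0 CPM in WT, SD, n = 3 each, limma adjusted p = 0.00148), and 5 did not pass. The Tat call was lost with any one of Acss2-KO replicate 3, WT replicate 2 and WT replicate 3 left out. Of the 8 Kupffer cell and leukocyte markers, all found, 4 were lower in Acss2-KO and none higher, and their summed level ranged from 66.3 to 133 CPM in Acss2-KO and from 170 to 505 CPM in WT. The count of 4 was 1 with Acss2-KO replicate 3 left out, 2 with Acss2-KO replicate 1, WT replicate 2 or WT replicate 3 left out, and 2 with median-of-ratios or quantile scaling. The lowest sum was that of Acss2-KO replicate 1 and the highest that of WT replicate 2. All 5 erythroid markers found were lower, with sums of 41.2 to 67.0 CPM in Acss2-KO and 162 to 281 CPM in WT. Of the adipocyte markers, 3 of 7 were found and Adipoq, Plin1, Lep and Retn were not analysed. The 3 found summed to between 20 and 56.6 CPM in Acss2-KO and between 13.3 and 18.0 CPM in WT. Of these, Fabp4 averaged 40.0 ± 19.4 CPM in Acss2-KO and 9.82 ± 3.48 CPM in WT (SD, n = 3 each, limma adjusted p = 0.0145). Leaving out WT replicate 1 put Fabp4 at an adjusted p of 0.0567, and leaving out WT replicate 2 at 0.0608. Of the cholangiocyte markers 3 of 7 were found, with 1 higher, 1 lower and sums of 31.4 to 34.6 CPM in Acss2-KO and 45.0 to 53.4 CPM in WT. The endothelial sums (228 to 308 CPM in Acss2-KO and 201 to 322 CPM in WT) and the stellate cell sums (222 to 382 CPM in Acss2-KO and 257 to 395 CPM in WT) overlapped between the genotypes, with 1 higher and 1 lower of 7 endothelial genes tested and none higher and 2 lower of 6 stellate cell genes tested. A sum follows its most abundant genes and can hide changes in others. The 2 lower stellate cell genes were Lrat (means 4.64 CPM in Acss2-KO and 19.05 CPM in WT) and Col3a1 (2.55 and 18.7 CPM). Of the endothelial genes, Lyve1 was higher (50.1 CPM in Acss2-KO and 7.57 CPM in WT) and Clec4g lower (27.5 and 56.4 CPM). Beside these marker counts, 23.1% of all 9355 genes tested were lower and 13.4% higher in Acss2-KO at a limma adjusted p under 0.05. The part of these other cell types in the results below was not tested.

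RNA of the channel and kinase genes was lower in Acss2-KO liver, Aqp9 by 2.19-fold and Gyk by 1.91-fold. Their products act at the first 2 steps of hepatic glycerol use, but protein and glycerol uptake were not measured here. Of the 5 genes, 2 fell (Aqp9 and Gyk), none rose, and 3 did not pass the test (Gpd1, Gpd2 and Gpd1l). Among all 9355 genes tested, 36.5% changed by limma at an adjusted p under 0.05, 23.1% lower and 13.4% higher in Acss2-KO, so a count of 2 lower among 5 rests on few genes against a high background. The median log2 fold change of the 5 genes was -0.68, beside -0.12 for all genes tested.

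Aqp9, the aquaglyceroporin of hepatocytes (ENSMUSG00000032204, chromosome 9, 71110659 to 71168682), was at 258, 333 and 253 CPM in Acss2-KO replicates 1, 2 and 3. It was at 714, 671 and 478 CPM in WT replicates 1, 2 and 3. The highest Acss2-KO library lay below the lowest WT library, as it did for 32.8% of all genes tested, while 20.1% lay apart in the higher direction and 52.9% in either. The means were 281 ± 45.1 CPM in Acss2-KO and 621 ± 126 CPM in WT (SD, n = 3 each), 2.19-fold lower in Acss2-KO. The log2 fold change was -1.13 (SE 0.23) with a limma adjusted p of 0.00659. The estimated read numbers behind these values, 5504 to 8548 in Acss2-KO and 11155 to 20651 in WT, leave counting error far smaller than the spread between libraries. In each of the 18 alternatives Aqp9 kept its sign and its call, with log2 fold changes between -1.31 and -0.97 and adjusted p-values between 0.0039 and 0.039. The authors' deposited table gives a log2 fold change of -0.98 with an adjusted p of 0.028.

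Gyk, which phosphorylates glycerol and so traps it in the cell (ENSMUSG00000025059, chromosome X, 85701937 to 85776819), was at 95.0, 162 and 147 CPM in Acss2-KO replicates 1, 2 and 3. In WT replicates 1, 2 and 3 it was at 242, 265 and 247 CPM. The groups did not overlap, as for 32.8% of all genes tested in the same direction. The WT libraries lay close together, the highest 1.09 times the lowest, against 1.71 times in Acss2-KO, where replicate 1 was the low one. Gyk averaged 135 ± 35.2 CPM in Acss2-KO and 251.5 ± 11.99 CPM in WT (SD, n = 3 each), 1.91-fold lower (log2 fold change -0.93, SE 0.23, limma adjusted p = 0.0142). The call held on leaving out any 1 library, with adjusted p between 0.00679 and 0.0468. It was lost when Acss2-KO replicate 1 and WT replicate 2 were both removed (log2 fold change -0.66, limma adjusted p = 0.11). These libraries were at the ends of the Kupffer cell and leukocyte range. They were also the lowest Acss2-KO and the highest WT library of Gyk, so removing them narrows the difference by itself. A part of cell types in the difference was therefore not tested by this removal. In the authors' deposited table Gyk has a log2 fold change of -0.75 and an adjusted p of 0.11, which is not past 0.05.

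**Figure D1:**
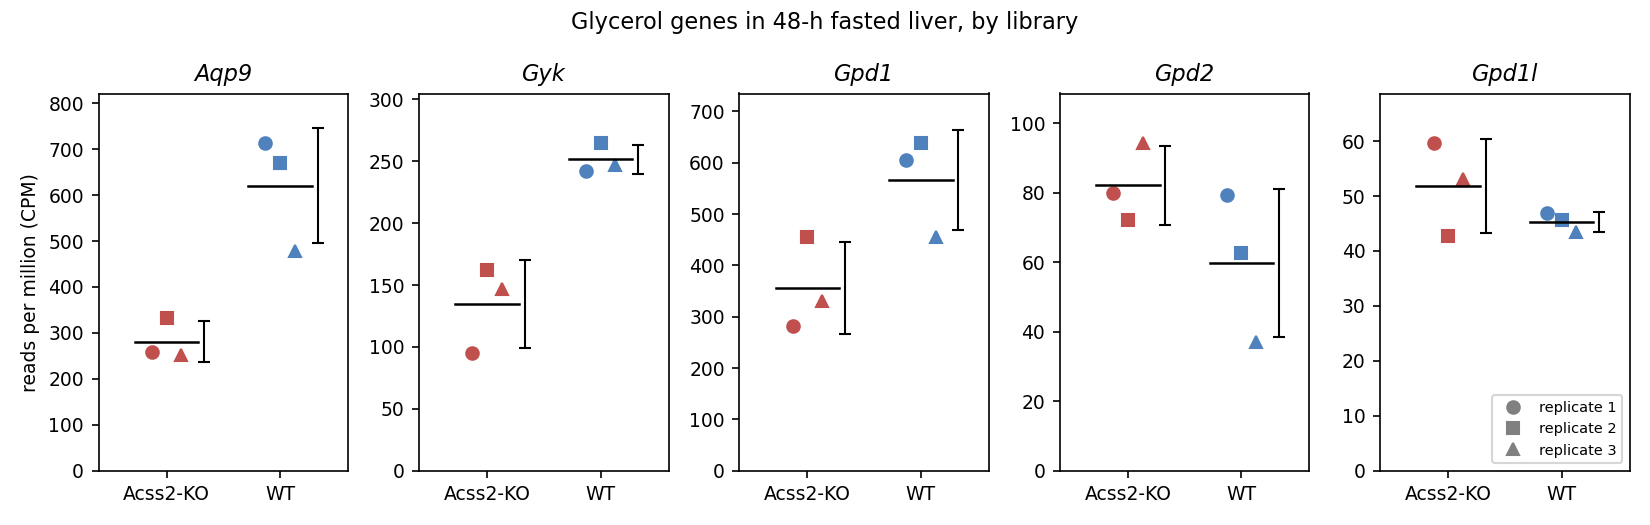
CPM (linear axes from 0) of the 5 glycerol genes in each library, Acss2-KO on the left and WT on the right of each panel. Points are libraries, horizontal lines group means and error bars SD (n = 3 each). Aqp9 and Gyk do not overlap between the genotypes, while Gpd1 meets at 455 CPM and Gpd2 and Gpd1l overlap.

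The promoters of Aqp9 and Gyk are shown because these are the 2 genes that fell together. Each sequence runs 5′ to 3′ along the gene, from 250 bases before to 50 bases after a RefSeq transcript start in GRCm38.p6, both on the minus strand, at chr9:71163240-71163539 for Aqp9 and chrX:85776770-85777069 for Gk, the symbol under which RefSeq lists Gyk. Capitals mark any match, on either strand, to the forkhead core TGTTTNC, the E-box CACGTG, the nuclear receptor half-site AGGTCA or the cyclic AMP response half-site TGACGT, motifs chosen after the sequences had been seen.
Aqp9 promoter: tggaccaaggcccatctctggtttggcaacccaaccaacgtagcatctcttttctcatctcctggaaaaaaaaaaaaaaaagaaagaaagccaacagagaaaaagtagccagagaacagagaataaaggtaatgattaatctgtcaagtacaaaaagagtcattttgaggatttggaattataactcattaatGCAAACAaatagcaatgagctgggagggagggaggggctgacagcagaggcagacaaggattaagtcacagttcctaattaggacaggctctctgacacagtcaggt
Gyk promoter: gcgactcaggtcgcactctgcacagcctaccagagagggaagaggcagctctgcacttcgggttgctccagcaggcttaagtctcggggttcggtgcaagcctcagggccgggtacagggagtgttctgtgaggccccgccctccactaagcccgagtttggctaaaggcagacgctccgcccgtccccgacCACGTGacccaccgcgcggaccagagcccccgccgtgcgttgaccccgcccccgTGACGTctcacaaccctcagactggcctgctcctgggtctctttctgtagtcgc
The Aqp9 window lies inside the gene span given above, downstream of its 5′ end, while the Gyk window lies at the end of its span. The Aqp9 window holds 1 forkhead match, GCAAACA on the printed strand, at -57 from the transcript start. A second Aqp9 window, at a start further downstream, holds another forkhead match at its first base. The Gyk window holds an E-box at -58 and a cyclic AMP response half-site at -4, and no motif occurred in both genes. The Gpd1l window also holds an E-box, at -127, and the Gpd2 windows hold none of the motifs. Gpd1 was not searched. Of the 32851 windows of the RefSeq table, 20.5% hold the forkhead core, 7.15% the E-box, 16.3% the nuclear receptor half-site and 7.51% the cyclic AMP response half-site. The windows differ in base composition, with 41.3% G+C and 1 CpG for Aqp9 and 65.7% G+C and 23 CpG for Gyk, beside a median of 52.7% G+C over all windows. A match is a run of letters and was not tested for binding.

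Gpd1, the cytosolic dehydrogenase (ENSMUSG00000023019, chromosome 15, 99717515 to 99725005), was at 282, 455 and 331 CPM in Acss2-KO replicates 1, 2 and 3, against 605, 639 and 455 CPM in WT replicates 1, 2 and 3. The groups met at one value, that of Acss2-KO replicate 2 and WT replicate 3. The means were 356 ± 89.2 CPM in Acss2-KO and 566 ± 97.8 CPM in WT (SD, n = 3 each), with a log2 fold change of -0.68 (SE 0.24, 95% confidence interval -1.23 to -0.13, not adjusted) that did not pass the test (limma adjusted p = 0.0541). Gpd1 stood at the edge of the threshold: it passed without Acss2-KO replicate 2 (log2 fold change -0.87, adjusted p = 0.0176), without WT replicate 3 (-0.83, 0.0439) and with limma run without a variance trend and robust fit (0.049). It also passed with the replicate number as a block (limma adjusted p = 0.0474). Only these 4 of the 18 alternatives passed. The limma adjusted p was 0.086 with median-of-ratios, 0.0788 with upper-quartile and 0.08 with quantile scaling. It was 0.152 and 0.167 with Acss2-KO replicates 1 and 3 left out in turn. With WT replicates 1 and 2 left out in turn it was 0.151 and 0.167. When Acss2-KO replicate 1 and WT replicate 2 were both removed, its log2 fold change was -0.43 (adjusted p = 0.372). Those were its lowest Acss2-KO and highest WT libraries, so that removal also narrows the difference by itself. The log2 fold change of Gpd1 was below 0 in each of the 18 alternatives.

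Gpd2, the mitochondrial dehydrogenase of the shuttle (ENSMUSG00000026827, chromosome 2, 57237635 to 57370719), lay on the other side of 0. It was at 79.9, 72.0 and 94.4 CPM in Acss2-KO replicates 1, 2 and 3 and at 79.3, 62.7 and 37.0 CPM in WT replicates 1, 2 and 3. WT replicate 1 lay just under Acss2-KO replicate 1 and above Acss2-KO replicate 2, and WT replicate 3 stood apart at the low end. The means were 82.1 ± 11.3 CPM in Acss2-KO and 59.7 ± 21.3 CPM in WT (SD, n = 3 each), and the log2 fold change of 0.51 (SE 0.27, 95% confidence interval -0.10 to 1.12) did not pass the test (limma adjusted p = 0.166). Without WT replicate 3 the log2 fold change was 0.21, and without WT replicate 1 it was 0.75, with adjusted p-values of 0.393 and 0.0731.

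Gpd1l, a cytosolic homologue of Gpd1 (ENSMUSG00000050627, chromosome 9, 114899341 to 114933987), was at 59.7, 42.8 and 53.1 CPM in Acss2-KO replicates 1, 2 and 3 and at 46.9, 45.6 and 43.4 CPM in WT replicates 1, 2 and 3. The 3 WT libraries lay inside the Acss2-KO range. Means were 51.9 ± 8.52 CPM in Acss2-KO and 45.3 ± 1.74 CPM in WT (SD, n = 3 each), and the log2 fold change of 0.18 (SE 0.17, limma adjusted p = 0.437) had a 95% confidence interval of -0.21 to 0.57, which leaves room for up to 1.49-fold more or 0.864 times the WT level. In the authors' deposited table the adjusted p-values are 0.31 for Gpd1, 0.21 for Gpd2 and 0.52 for Gpd1l.

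**Figure D2:**
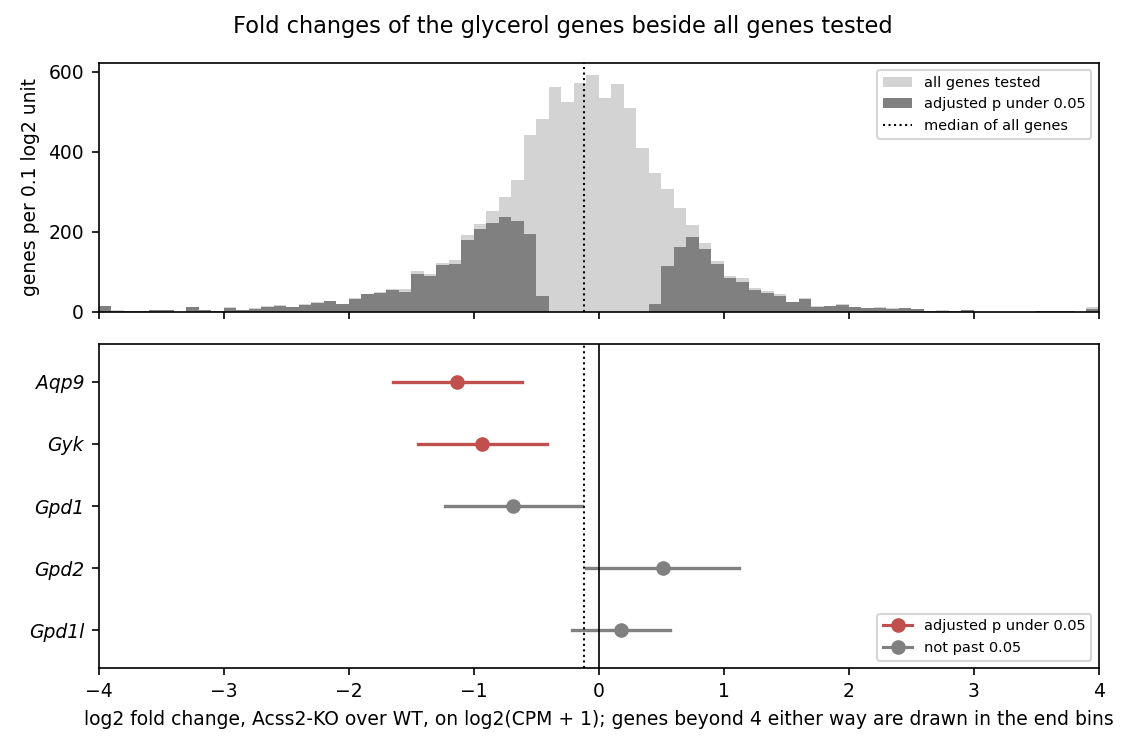
Top, number of genes by log2 fold change of Acss2-KO over WT (all 9355 genes tested in light grey, those past an adjusted p of 0.05 in dark grey). Bottom, log2 fold changes of the 5 glycerol genes with unadjusted 95% confidence intervals from limma. The dotted line is the median of all genes at -0.12. Aqp9 and Gyk (red) lie near -1, Gpd1 between them and 0, and Gpd2 and Gpd1l above 0.

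Levels were compared between genes only per kb of annotated exon (GENCODE M1 gene models, all exons of a gene joined). In Acss2-KO, Gpd1 was the highest at 120 ± 30.1 CPM per kb, followed by Aqp9 at 67.9 ± 10.9, Gyk at 17.4 ± 4.54, Gpd2 at 12.5 ± 1.73 and Gpd1l at 10.2 ± 1.68 CPM per kb (SD, n = 3). In WT the order was the same, with Gpd1 at 191 ± 33.0, Aqp9 at 150 ± 30.4, Gyk at 32.5 ± 1.55, Gpd2 at 9.11 ± 3.26 and Gpd1l at 8.92 ± 0.342 CPM per kb (SD, n = 3). The libraries of Gpd1 and Aqp9 were apart in Acss2-KO (95.3 to 154 against 60.9 to 80.4 CPM per kb) and overlapped in WT (154 to 216 against 115 to 172 CPM per kb). Gyk and Gpd2 overlapped in Acss2-KO (12.3 to 20.9 and 10.99 to 14.4 CPM per kb), while each WT library of Gyk was above each of Gpd2. Gpd2 and Gpd1l overlapped in both genotypes. These orders and overlaps depended on the gene model, as another length chosen after seeing the data showed. For Aqp9, the level per kb of the longest annotated transcript was 102 CPM per kb in Acss2-KO and 225 in WT, against 124 and 198 CPM per kb for Gpd1, so that Aqp9 was the higher one in WT. On that scale the 2 genes overlapped in Acss2-KO (98.6 to 159 CPM per kb for Gpd1 and 91.3 to 120.5 for Aqp9), and Gyk no longer overlapped Gpd2 there (21.9 to 37.3 against 12.5 to 16.4 CPM per kb).

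A ratio of 2 genes within a library does not move with library scaling, and shows whether genes changed unequally. Among 6 ratios, each tested by a two-sided exact permutation test over 3 against 3 libraries (smallest possible p = 0.1), none could pass 0.05. The log2 ratio of Gpd1 to Gpd2, cytosolic over mitochondrial dehydrogenase, was 1.81, 2.64 and 1.80 in Acss2-KO replicates 1, 2 and 3 and 2.91, 3.33 and 3.58 in WT replicates 1, 2 and 3. The groups did not overlap, and the mean difference was -1.19 (exact permutation p = 0.1, adjusted p = 0.2 over the 6 ratios), so Gpd1 was lower relative to Gpd2 in each Acss2-KO library than in any WT library. The log2 ratio of Gyk to Gpd2 was also apart, at 0.68 ± 0.46 in Acss2-KO and 2.12 ± 0.56 in WT (SD, n = 3 each). That of Aqp9 to Gpd1 was -0.32 ± 0.17 in Acss2-KO and 0.13 ± 0.10 in WT (SD, n = 3 each). For both, the exact permutation p was 0.1 and the adjusted p 0.2. In these libraries the channel gene lay further below WT than the dehydrogenase gene did, which this test could not establish. The ratio of Aqp9 to Gyk differed by less than the spread between libraries, with 1.08 ± 0.33 in Acss2-KO and 1.28 ± 0.31 in WT (SD, n = 3 each, exact permutation p = 0.5). The ratios of Gyk to Gpd1 and of Gpd1 to Gpd1l overlapped between the genotypes, with differences of -0.25 and -0.86 (exact permutation p = 0.3 and 0.2). How often ratios of other gene pairs lie apart was not worked out, so the ratios apart here have no background. Of single genes tested, 52.9% lay apart in either direction.

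**Figure D3:**
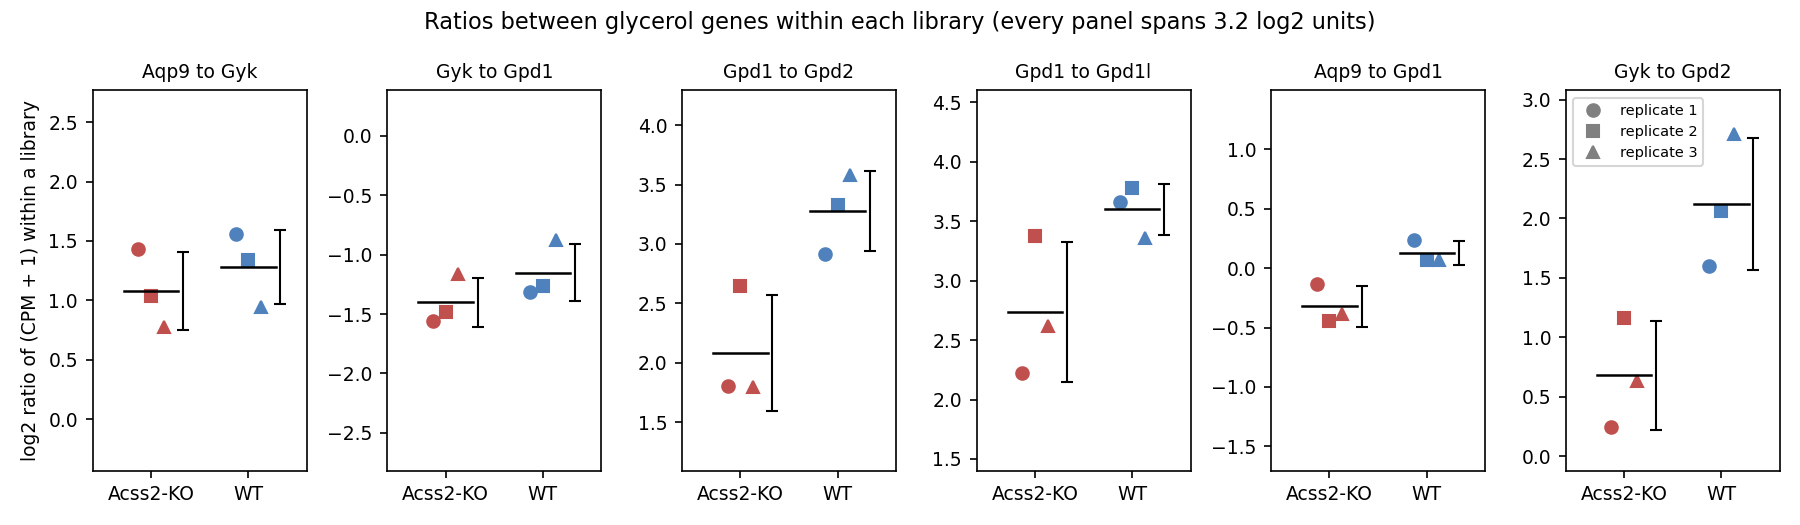
Log2 ratio of (CPM + 1) between pairs of glycerol genes within each library, Acss2-KO left and WT right in each panel, with group means (lines) and SD (error bars, n = 3 each). Each panel spans the same height. Gpd1 to Gpd2, Aqp9 to Gpd1 and Gyk to Gpd2 do not overlap between the genotypes and the other ratios do.

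Genes whose values over the 6 libraries followed Aqp9 and Gyk most closely were sought by Euclidean distance of mean-centred log2(CPM + 1) among 8967 other named genes tested. Nearest to Aqp9 were Xpnpep3 (distance 0.15), Adgra3 (0.17) and the nuclear receptor gene Nr5a2 (0.18). Nr5a2 was at 23.9, 35.0 and 25.6 CPM in Acss2-KO replicates 1, 2 and 3 and at 75.1, 67.7 and 53.5 CPM in WT replicates 1, 2 and 3. Nearest to Gyk were Nars2 (0.076), which charges mitochondrial tRNA with asparagine, the atlastin gene Atl3 (0.12) and Isoc1 (0.12). Their log2 fold changes lay between -0.97 and -0.91 for the neighbours of Gyk and between -1.19 and -1.01 for those of Aqp9. The distance is a description over 6 libraries of 2 genotypes.

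Around these steps, RNA of the enzymes that free glycerol from stored lipid moved in both directions. Of 8 lipase and cofactor genes tested, 1 rose and 3 fell, with a median log2 fold change of -0.59. For this count and those of the lists that follow, the shares over all genes tested were 13.4% higher and 23.1% lower. Pnpla2, the triglyceride lipase that starts lipolysis, was at 1144, 541 and 976 CPM in Acss2-KO replicates 1, 2 and 3, against 201, 163 and 131 CPM in WT replicates 1, 2 and 3 (log2 fold change 2.37, SE 0.30, limma adjusted p = 0.00119). Mgll, which splits monoglyceride and so releases the glycerol itself, was at 113, 309 and 193 CPM in Acss2-KO and at 495, 580 and 360 CPM in WT (log2 fold change -1.31, limma adjusted p = 0.0206). Lipe, the hormone-sensitive lipase, averaged 10.9 ± 1.71 CPM in Acss2-KO and 19.2 ± 3.80 CPM in WT (SD, n = 3 each, -0.75, limma adjusted p = 0.0197). RNA of the first lipase of the pathway was thus higher and that of the last one lower, without overlap between the genotypes for either. Over all genes tested, 20.1% lay apart in the higher direction and 32.8% in the lower. The Pnpla2 call held on leaving out any 1 library. Those of Mgll and Lipe did not: with Acss2-KO replicate 3 left out the adjusted p was 0.0646 for Mgll and 0.0876 for Lipe, with WT replicate 1 left out 0.0627 and 0.0755, and with WT replicate 2 left out 0.0675 and 0.068.

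A list of other genes around glycerol phosphate, which also holds a kinase of dihydroxyacetone and sugar phosphate transporters of the Slc37 family, counted 3 higher and none lower among 7 tested. One of the 3, Slc37a4, carries glucose-6-phosphate and is no enzyme of glycerol phosphate. It averaged 512 ± 123 CPM in Acss2-KO and 179 ± 7.34 CPM in WT (SD, n = 3 each, log2 fold change 1.48, SE 0.22, limma adjusted p = 0.00198). Gpcpd1, which releases glycerol-3-phosphate from glycerophosphocholine, was at 1201, 282 and 680 CPM in Acss2-KO and 212, 168 and 187 CPM in WT (1.70, SE 0.47, limma adjusted p = 0.0265). Gde1, a glycerophosphodiesterase, averaged 158 ± 32.5 CPM in Acss2-KO and 81.6 ± 11.7 CPM in WT (SD, n = 3 each, 0.93, limma adjusted p = 0.0107). RNA of both of these enzymes of glycerophosphodiester breakdown was thus higher, but Gpcpd1 varied widely among the Acss2-KO libraries. For Gpcpd1 the adjusted p was 0.0836 with Acss2-KO replicate 3 left out and 0.0664, 0.0865 and 0.0751 with WT replicates 1, 2 and 3 left out in turn, and for Gde1 it was 0.0553 with Acss2-KO replicate 3 left out. Without Acss2-KO replicate 3 the count was 1 higher.

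Of 9 genes that acylate glycerol phosphate or act on the products, 2 rose and 1 fell, with a median log2 fold change of 0.33. Gpam, the mitochondrial glycerol phosphate acyltransferase, was at 350, 218 and 274 CPM in Acss2-KO and 180, 201 and 121 CPM in WT (log2 fold change 0.75, SE 0.26, limma adjusted p = 0.0482). Its groups did not overlap, as for 20.1% of all genes tested in the same direction. The adjusted p of Gpam was 0.134 with Acss2-KO replicate 1 left out and 0.128 with Acss2-KO replicate 3. It was 0.0857, 0.0533 and 0.118 with WT replicates 1, 2 and 3 left out in turn. Lpin3, a phosphatidate phosphatase, averaged 14.1 ± 1.61 CPM in Acss2-KO and 6.13 ± 0.0977 CPM in WT (SD, n = 3 each, 1.08, limma adjusted p = 0.00213). Agpat1, a lysophosphatidate acyltransferase, averaged 2.27 ± 0.514 CPM in Acss2-KO and 11.96 ± 1.494 CPM in WT (SD, n = 3 each, -1.99, limma adjusted p = 0.000476). Leaving out 1 library moved the higher count to between 1 and 4 and the lower count to between 1 and 2.

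**Figure D4:**
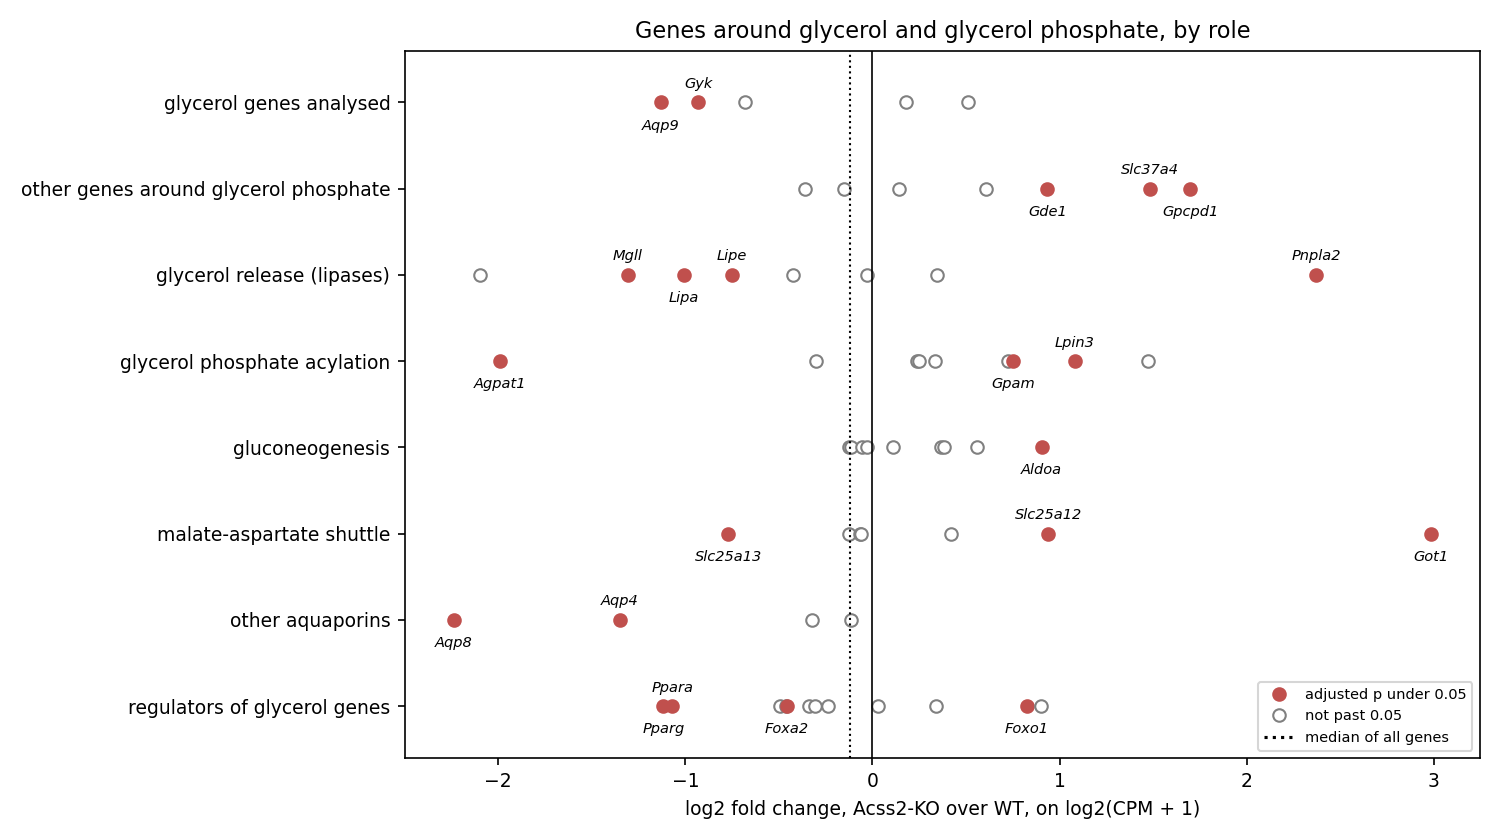
Log2 fold changes of Acss2-KO over WT on log2(CPM + 1) for the tested genes of each role, 1 row per list. Filled red points passed a limma adjusted p of 0.05 and are named, open points did not, and the dotted line is the median of all genes tested. Pnpla2 at 2.37 and Mgll at -1.31 stand on opposite sides of 0 in the lipase row.

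Among 9 genes of gluconeogenesis tested, most of them acting between dihydroxyacetone phosphate and glucose, 1 rose and none fell. The one was Aldoa, the aldolase most typical of muscle, at 254, 155 and 218 CPM in Acss2-KO and 115, 109 and 103 CPM in WT (log2 fold change 0.90, limma adjusted p = 0.0125). With Acss2-KO replicate 3 left out its adjusted p was 0.0579, and no gene of the list passed. The count of higher genes was 3 with median-of-ratios or quantile scaling, and 2 with upper-quartile scaling or with Acss2-KO replicate 2 or WT replicate 3 left out. In the malate-aspartate shuttle 2 of 7 genes rose and 1 fell. Got1, the cytosolic aspartate aminotransferase, was at 3444, 955 and 1795 CPM in Acss2-KO and 269, 168 and 261 CPM in WT (log2 fold change 2.98, SE 0.44, limma adjusted p = 0.00243). The genes of the 2 carriers that exchange aspartate for glutamate went opposite ways. Slc25a12 averaged 33.4 ± 5.23 CPM in Acss2-KO and 16.9 ± 2.42 CPM in WT (0.94, limma adjusted p = 0.00549), and Slc25a13, the main form in liver, 200 ± 55.0 CPM in Acss2-KO and 336 ± 49.4 CPM in WT (SD, n = 3 each, -0.77, limma adjusted p = 0.0368). For Slc25a13 the adjusted p was 0.103 with Acss2-KO replicate 1 left out, 0.107 with Acss2-KO replicate 3, 0.104 with WT replicate 1 and 0.114 with WT replicate 2, and the call was also lost with median-of-ratios (0.0568), upper-quartile (0.0531) or quantile scaling (0.0631).

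Aqp9 was not the only aquaporin gene below WT. Of 4 other aquaporin genes tested, 2 fell and none rose. Aqp8, a water channel of hepatocytes, was at 3.95, 27.1 and 9.71 CPM in Acss2-KO and 43.4, 61.8 and 55.0 CPM in WT (log2 fold change -2.24, limma adjusted p = 0.033). Aqp4, a water channel best known from brain, was at 6.02, 20.7 and 15.6 CPM in Acss2-KO and 36.0, 34.5 and 30.7 CPM in WT (-1.35, SE 0.38, limma adjusted p = 0.0265). In both, Acss2-KO replicate 2 was the highest of its group, as in Aqp9, Gyk, Gpd1, Mgll, Lipe and Slc25a13, so this is not particular to aquaporins. Without that library the calls over all genes rose from 1252 to 1616 higher and from 2161 to 2381 lower. With Acss2-KO replicate 3 left out the adjusted p was 0.103 for Aqp8 and 0.0533 for Aqp4. With WT replicates 1, 2 and 3 left out in turn it was 0.0914, 0.127 and 0.0607 for Aqp8 and 0.0822, 0.083 and 0.069 for Aqp4.

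Among 12 transcription factor and signalling genes tied to fasting and insulin control of this pathway, 1 rose and 3 fell. These counts are near the shares over all genes tested, 13.4% higher and 23.1% lower. Ppara, the nuclear receptor that drives fasting genes in liver, was at 104, 105 and 105 CPM in Acss2-KO replicates 1, 2 and 3 and at 250.7, 276 and 154 CPM in WT replicates 1, 2 and 3 (log2 fold change -1.07, SE 0.24, limma adjusted p = 0.00932). Pparg, its relative best known in adipocytes, where it raises aquaglyceroporin and glycerol kinase genes, averaged 6.93 ± 1.149 CPM in Acss2-KO and 16.2 ± 2.69 CPM in WT (SD, n = 3 each, -1.12, limma adjusted p = 0.00366). Foxo1, the forkhead factor restrained by insulin, averaged 73.1 ± 14.7 CPM in Acss2-KO and 41.9 ± 13.8 CPM in WT (SD, n = 3 each, 0.83, limma adjusted p = 0.0447). The calls of Ppara and Pparg held on leaving out any 1 library. The third lower gene, Foxa2, named after its values were seen, had a limma adjusted p of 0.048, and its call was lost under each of the 3 scalings (0.0843 to 0.11) and on leaving out any library but Acss2-KO replicate 1. For Foxo1 the adjusted p was 0.115 with Acss2-KO replicate 1 left out, 0.144 with Acss2-KO replicate 3, 0.0515 with WT replicate 2 and 0.0963 with WT replicate 3, and the call was also lost with limma run without a variance trend and robust fit (0.0554) and at a minimum of 20 CPM (0.0504).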

How the data were processed

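The authors deposited 1 table with a column per library. The deposited values were taken as log2 CPM (reads per 1000000 reads) because each column, once the logarithm is undone, adds up to between 997061.4 and 997856.5, with anything under 1 CPM listed at 0. The submitters' processing notes name Bowtie 0.12.2 and the build mm8. The annotation, strand handling and treatment of multiply matching reads were not given in the sources used here. Compared with RefSeq GRCm38.p6, the start coordinates in the table differed by a median of 8 bp (11623 genes), so coordinates are taken as GRCm38. The authors also deposited a log2 fold change, a p-value and an adjusted p-value per gene, by a test not given in the sources used here.

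The gaps between the smallest values in a library gave an estimate of its depth. Since values carry 2 decimals on a log scale, between 10.4% and 14.3% came out whole within 0.05 of a read, so no count model was used. Listed zeros were set to 1 CPM. The 9355 genes averaging 5 CPM or more, the 5 glycerol genes among them, were tested on log2(CPM + 1) by limma 3.58.1, with a variance trend and robust shrinkage (R 4.3.3, statmod 1.5.0), Benjamini-Hochberg adjusted over all genes tested, with a threshold of 0.05. The fit was run on simulated libraries with known changes, as a check of the procedure that does not show that small changes would be found. A fold change on this scale understates that of low genes. Alternatives were pseudocounts, scalings, filters, the deposited log2 scale, plain limma, a threshold of 0.01, libraries left out and a replicate block.

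The genes and the 15 lists were chosen with earlier results of these data known. Named besides the glycerol genes are Acss2, up to 3 genes past the threshold per list with the smallest p, and the 3 genes nearest in pattern to each glycerol gene that changed. Not every such gene is named. Ratios were tested with scipy 1.17.1.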

Additional observations from a re-analysis of the deposited data

How the results depend on the processing

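Each of the 5 glycerol genes kept the sign of its log2 fold change in each of its 18 alternatives. The count of 2 lower was 3 in the alternatives where Gpd1 passed. These were without Acss2-KO replicate 2, without WT replicate 3, with limma run without a variance trend and robust fit, and with the replicate block. The count was 1 at a threshold of 0.01 or without both Acss2-KO replicate 1 and WT replicate 2. No glycerol gene was higher past the threshold in any alternative run. Scaling that removes the shift of all genes left Aqp9 and Gyk past the threshold: with quantile scaling, log2 fold changes were -0.97 and -0.77 (limma adjusted p = 0.00837 and 0.0247), and the median of all genes was 0.02, against -0.12 on CPM.

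Over all genes, 1252 were higher and 2161 lower in Acss2-KO. The counts were 741 and 1112 at a minimum of 20 CPM, which tests fewer genes, 505 and 991 at a threshold of 0.01, and 702 and 1291 without both Acss2-KO replicate 1 and WT replicate 2. On leaving out 1 library, higher calls ranged from 525 to 1616 and lower calls from 1192 to 2381. With median-of-ratios scaling 1690 were higher and 1765 lower, with upper-quartile scaling 1622 and 1815, and with quantile scaling 1791 and 1624. A minimum of 1 CPM removed no gene, since 1 CPM is the floor of the table.

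When Acss2-KO replicate 1 and WT replicate 2 were both removed, higher and lower calls were 1 and 0 among the lipases, 2 and 0 among other genes around glycerol phosphate, 1 and 1 in acylation, 0 and 1 in gluconeogenesis, 2 and 0 in the malate-aspartate shuttle, 0 and 2 among other aquaporins and 0 and 2 among regulators. Removing Acss2-KO replicate 3, WT replicate 1 or WT replicate 2 left the lipases with no lower call.

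Libraries of the same replicate number did not deviate together (correlations across genes of -0.10, -0.14 and 0.09 for replicates 1, 2 and 3), so the numbers were not taken as pairs. With the number as a replicate block, 1260 genes were higher and 2137 lower, Aqp9 (limma adjusted p = 0.0045) and Gyk (0.0103) kept their calls, Gpd1 passed (0.0474), and Gpd2 (0.16) and Gpd1l (0.495) did not. The block gave 6 lower Kupffer cell and leukocyte markers, against 4, and put Foxa2 at 0.0814. Differences in the 6 ratios kept their sign without a pseudocount, under the block and on leaving out any 1 library.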
